A study of Homo sapiens with 16 samples.

Results

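The genes described here build the nuclear pore and carry cargo through it: 28 nucleoporins, 12 genes of the TREX and THO complexes and the mRNA export receptor, and 6 importins, exportins and Ran cycle genes. The 46 genes were listed by name and function, and 43 of them were among the 19775 genes with at least 1 probe set annotated to that gene alone. Each of 8 human lung cancer lines (H23, H358, H460, H661, H1437, H1703, A427 and A549) was grown in 2 ways, with 1 Affymetrix U133 Plus 2.0 array of total RNA per line and culture. The 8 arrays called 3D are of cells grown on a thin layer of Matrigel, a basement membrane extract, under medium with 2 % Matrigel added. The 8 arrays called 2D are of the same lines, labelled untreated, on plain culture plastic. Both cultures used like seeding density and medium per the series' design text, and no gene was altered in either. The 3D arm thus differs from the 2D arm in both the substrate and the added extract, the time in culture is not given in the sources used here, and no line has a repeat array, so the spread between lines is the error of every comparison.

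The nuclear pore complex is a ring-shaped assembly set in the nuclear envelope, in which outer rings (the Y complex) and an inner ring form the scaffold, membrane nucleoporins anchor it, and nucleoporins rich in phenylalanine-glycine repeats fill the channel. Filaments on the cytoplasmic side and a basket on the nuclear side dock and release cargo. Spliced mRNA is packed by the TREX complex, whose adaptor ALYREF hands it to the receptor pair NXF1 and NXT1, while importins and exportins carry proteins and small RNAs in a cycle driven by the GTPase Ran. Dividing cells rebuild their pores after each mitosis, and several Y complex members also act at kinetochores.

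Each value is a log2 ratio of an array to a reference that belongs to the probe set itself, so levels cannot be compared between genes, and a gene's value is the mean over its own probe sets. A gene was called where the limma fit of 3D minus 2D, with the line as a block, gave a Benjamini-Hochberg adjusted p under 0.05 over all 14113 genes tested. Over all these genes the median difference was -0.01. Each of the 16 arrays was closest to the other array of its own line, with correlations between 0.809 and 0.941 over genes. Of the cell type markers, all 5 epithelial and all 3 lung lineage genes had a probe set at its reference, as did 2 of 5 leukocyte, 1 of 3 endothelial and 5 of 5 fibroblast genes, and limma called 0 of these 16 genes (1 of them, CD14, reached an unadjusted p under 0.05). Such a probe set was found for 14113 of all 19775 genes. It is no detection call, so these counts do not show which cell types were present. The array carries probe sets for 18S ribosomal RNA as a control. Their mean was lower in 3D in 8 of 8 lines, by -1.15 ± 1.06 (SD, n = 8), with H23 at -3.45 and H1437 at -0.08. Taken singly, 1 of these probe sets was lower in only 6 lines, with A427 and H1437 at 0.08 each. Of 17 proliferation genes 8 were called lower, with a median of -0.49. The part of either in the results below was not tested. A fit with the 18S mean as a covariate is given, but that mean was lower in 3D in every line. That fit therefore cannot fully tell 18S and culture apart.

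Most pore and transport genes stood lower in 3D. Of the 43 tested members 12 were called, where 6.09% of all tested genes were. Lower calls went to 11 of the 43, or 25.6%, where 4.12% of all tested genes were called lower, and 1 member was called higher, where 1.97% were. The difference lay under 0 in 39 of 43 members, against 51.4% of all tested genes, and was lower in 8 of 8 lines in 8 members, against 4.42% of all tested genes. The median member difference was -0.25. At an unadjusted p under 0.05, 25 members were lower and 1 was higher, where 15.1% of all tested genes were lower. The members called lower were ALYREF, NUP43, RANGAP1, DDX39A, NUP62, NUP155, NUP93, AAAS, NUP107, NUP205 and NUP85, and the member called higher was NUP160. All were changes within lines that already differed: for none of the 43 members did the 3D values and the 2D values of the 8 lines lie apart. The share of all tested genes with such a gap was not counted, so the overlap cannot be read as a trait of the members. The calls depended on which lines were in the fit. With 1 line left out the fits called 17 members without A427, 13 without H1437, 5 without H661, 4 without A549, 4 without H23, 1 without H358 (ALYREF), 1 without H460 (NUP43) and 0 without H1703, while the number of all genes called fell to between 17 and 353 in the fits without those last 6 lines. Of all genes, 980 were called without A427 and 840 without H1437. Without A427 the 12 calls were all kept, and without H1703 all 12 were lost. In the limma fit without H1703, 22 members and 3026 of all 14113 genes still had an unadjusted p under 0.05. With the 18S level as a covariate 0 members and 0 of all genes were called by limma, with 12 members and 1368 genes at an unadjusted p under 0.05, and 34 members had a difference under 0. In bulk RNA, less of a transcript per cell and fewer cells that hold it cannot be told apart.

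**Figure D1:**
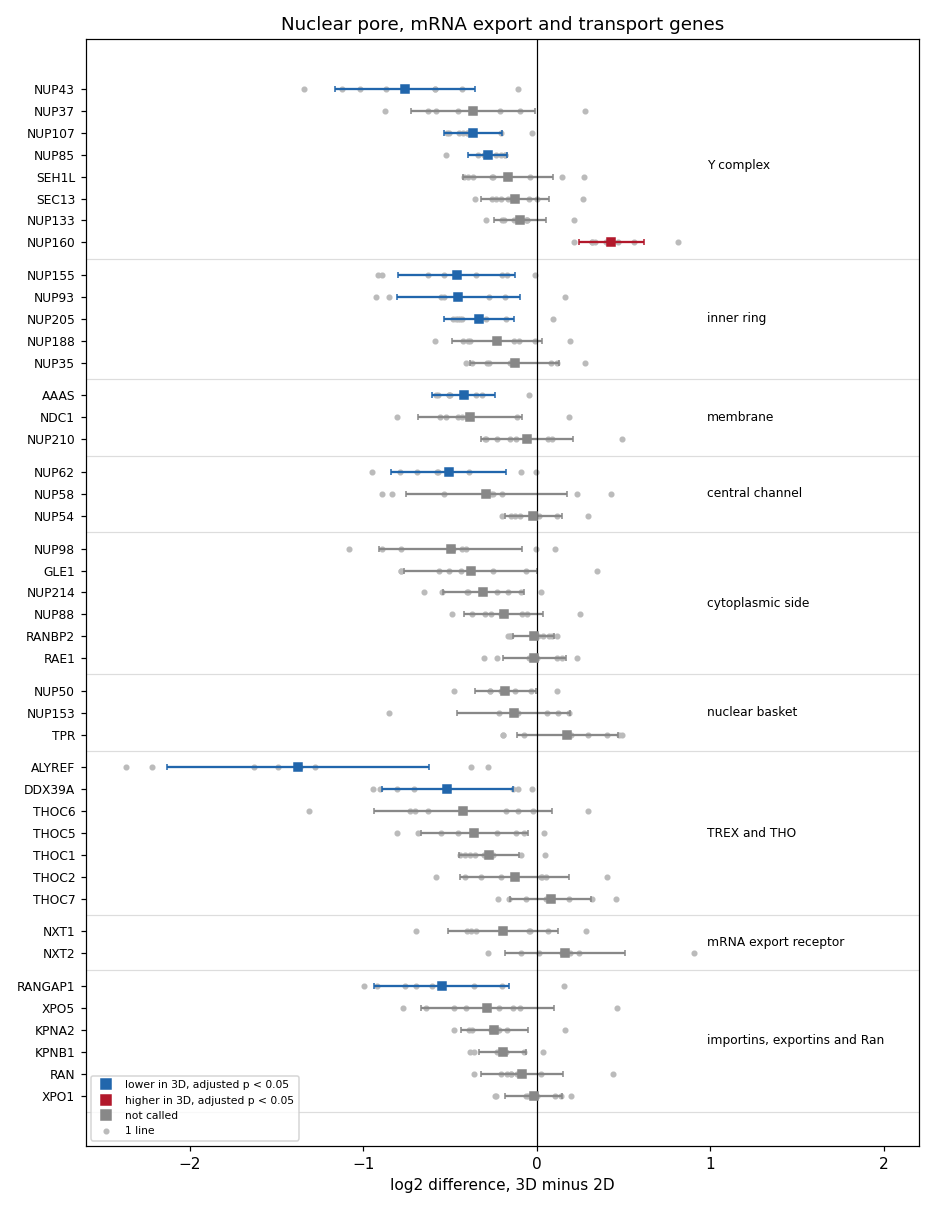
Difference between 3D and 2D (log2, horizontal axis) for the 43 tested members, grouped by their place in the pore or transport cycle. Squares are means over 8 lines with bars of 1 SD, small points are single lines, and colour gives the call. Means lie between -1.38 for ALYREF and 0.43 for NUP160, and 39 of 43 are left of 0.

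Promoter sequence is shown for 4 members to set called genes of both directions beside each other: ALYREF, which fell the most, NUP160, the member that was called higher, and NUP107 and NUP62, which fell and share a motif with ALYREF. They were picked after their values and motifs were seen. Each line gives the 250 bases before the RefSeq gene start, 5′ to 3′ on the gene's own strand, in build GRCh38.p14. ALYREF lies at chr17:81891588-81891837 on the minus strand, NUP107 at chr12:68686728-68686977 on the plus strand, NUP62 at chr19:49929505-49929754 on the minus strand and NUP160 at chr11:47848351-47848600 on the minus strand. Capitals mark, on either strand, the letters of the NFY motif (CCAAT), the E-box (CACGTG), the ETS motif (CCGGAAG), the NRF1 motif (its usual consensus) and the E2F motif (TTCCCGC and, as further accepted forms, TTGGCGC as well as TTCGCGC).
ALYREF: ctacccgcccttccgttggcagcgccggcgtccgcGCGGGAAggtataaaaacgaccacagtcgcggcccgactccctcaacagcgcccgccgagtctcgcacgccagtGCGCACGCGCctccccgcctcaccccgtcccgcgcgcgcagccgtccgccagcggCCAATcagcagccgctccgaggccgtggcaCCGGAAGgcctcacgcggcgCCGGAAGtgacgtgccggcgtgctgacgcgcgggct
NUP107: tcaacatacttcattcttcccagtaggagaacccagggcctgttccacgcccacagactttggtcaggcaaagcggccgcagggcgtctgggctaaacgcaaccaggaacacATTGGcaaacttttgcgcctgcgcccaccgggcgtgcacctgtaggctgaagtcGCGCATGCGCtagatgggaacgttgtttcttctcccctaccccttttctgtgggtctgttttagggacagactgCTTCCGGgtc
NUP62: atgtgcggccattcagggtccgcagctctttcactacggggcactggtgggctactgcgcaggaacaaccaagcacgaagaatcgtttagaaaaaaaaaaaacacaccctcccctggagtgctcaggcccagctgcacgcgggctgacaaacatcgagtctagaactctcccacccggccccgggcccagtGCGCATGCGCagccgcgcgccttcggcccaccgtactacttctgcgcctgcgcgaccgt
NUP160: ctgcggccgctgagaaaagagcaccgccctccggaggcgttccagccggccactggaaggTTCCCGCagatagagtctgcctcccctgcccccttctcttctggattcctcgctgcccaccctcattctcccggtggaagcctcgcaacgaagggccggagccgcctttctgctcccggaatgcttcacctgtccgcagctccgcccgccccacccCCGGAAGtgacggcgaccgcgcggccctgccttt
ALYREF holds an NRF1 match that begins 141 bases before the start, ETS matches at 56 and 36 bases, an NFY match at 86 and an E2F match at 215. NUP107 holds an NRF1 match at 84 bases, an ETS match at 10 and an NFY match at 138. NUP62 holds 1 NRF1 match, at 59 bases. NUP160 holds an ETS match at 34 bases and an E2F match at 190, with no NRF1 letters in this window. Since NUP107 and NUP62 were picked for a motif shared with ALYREF, the NRF1 contrast with NUP160 follows from the choice of genes. NRF1 letters stood in only 3 of the 10 promoters of members called lower. RefSeq promoters were matched for 42 of 46 members, and 10 of the 11 members called lower are among them.

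The same letters were counted in all of these windows. The NRF1 motif stood in 7 of 42 member promoters (16.7%), against 4.54% of the 11306 promoters of tested genes, and those 7 were NUP107, NUP62, NUP50, ALYREF, NXF1, XPO5 and RAN. The ETS motif stood in 17 of 42 (40.5%) against 15.0%. Of the other motifs, NFY stood in 38.1% against 34.9%, E2F in 16.7% against 14.8%, the E-box in 7.14% against 8.61%, and the SP motif (GGGCGG) in 57.1% against 64.6%. The CHR motif (TTTGAA) had 16.7% against 8.84%, and the hypoxia response core (ACGTG, letters that the E-box also holds) had 35.7% against 22.5%. Among the 10 promoters of members called lower, NFY letters stood in 5, SP in 4, NRF1 in 3, ETS and ACGTG in 2 each, E2F and CHR in 1 each, and the E-box in 0. SP, CHR and ACGTG matches are not capitalised above. Median GC content was 63.4% in member promoters and 64.8% in those of tested genes. These are letter matches, with no test, and the arrays hold no binding data.

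The Y complex, the outer ring that shapes the pore scaffold, held 3 of the 11 lower members and the 1 higher member among its 8 genes, with a median difference of -0.22. NUP43, a propeller-shaped subunit of this ring, had values between -1.32 and 0.79 with a median of -0.27 in 3D, against -0.30 to 1.81 with a median of 0.32 in 2D. A549 was lowest in 3D and H1703 was highest in both cultures, and the groups overlapped. Its difference was -0.76 ± 0.40 (SD, n = 8; adjusted p = 0.0197) and lower in 8 of 8 lines. By line it was -1.34 in H23, -1.12 in A549, -1.02 in H1703, -0.87 in H358, -0.59 in H1437, -0.59 in A427, -0.43 in H661 and -0.11 in H460. Both of its probe sets were called lower, at -0.49 and -1.03. The call was lost without H358 (adjusted p = 0.0549) and without H1703 (adjusted p = 0.0539).

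NUP107, the name-giving subunit of the ring, had values between -0.997 (H358) and 0.61 (A427) with a median of -0.41 in 3D, against -0.55 (H358) to 0.91 (H23) with a median of 0.09 in 2D. It fell by 0.37 (SD 0.17, adjusted p = 0.0254) in 8 of 8 lines, though by only 0.03 in A427. NUP85, another scaffold subunit, had values between -0.56 (A549) and 0.08 (A427) with a median of -0.10 in 3D, against -0.33 (A549) to 0.42 (H661) with a median of 0.24 in 2D. Its fall of 0.28 (SD 0.11, adjusted p = 0.0334) was small, with H661 lowest at -0.52 and the other lines between -0.34 and -0.18. Leaving out 1 line kept the NUP107 call in 3 of 8 fits (without A427, H661 or H1437) and the NUP85 call in 2 of 8 (without A427 or H1437). In the other fits the adjusted p was 0.0546 to 0.0699 for NUP107 and 0.0603 to 0.0796 for NUP85.

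NUP160 was the member that rose. Its values in 3D lay between -0.93 (H1437) and 0.999 (A427) with a median of 0.19, against -1.25 (H1437) to 0.19 (A427) with a median of -0.12 in 2D. The same lines were lowest and highest in both cultures, and the groups overlapped. The difference was 0.43 ± 0.19 (SD, n = 8; adjusted p = 0.0213), higher in 8 of 8 lines (3.08% of all tested genes were), with A427 at 0.81, H661 at 0.56, H23 at 0.47, H358 at 0.40, A549 at 0.34, H460 at 0.32, H1437 at 0.32 and H1703 at 0.21. Its probe sets did not go together: one stood at 0.88 ± 0.41 and another at 0.46 ± 0.19, both called higher, while the last stood at -0.06 ± 0.23 (adjusted p = 0.700). The gene's call therefore rests on 2 of its 3 probe sets. The call was lost without H358 (adjusted p = 0.0549), H460 (0.0530) or H1703 (0.0518).

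The remaining Y complex genes were not called. NUP37, a partner of NUP160 in the ring, had values between -0.89 (H358) and 0.43 (A549) with a median of -0.15 in 3D, against -0.60 (A427) to 1.31 (A549) with a median of 0.20 in 2D, a difference of -0.37 ± 0.36 (adjusted p = 0.0868). NUP133, which joins one Y to the next, had values between -0.31 (A427) and 0.92 (H460) with a median of -0.12 in 3D, against -0.43 (H661) to 0.99 (H460) with a median of 0.03 in 2D. H460 was highest in both cultures, and the difference was -0.10 ± 0.15 (adjusted p = 0.431). SEC13 and SEH1L, which both also serve in the GATOR complex upstream of mTORC1 (and SEC13 in the COPII coat too), stood at -0.13 ± 0.19 and -0.17 ± 0.26.

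The inner ring, the scaffold layer that lines the channel, had all 5 genes under 0 and 3 of them called lower, with a median of -0.33. NUP155, which ties the ring to the envelope, had values between -1.52 (A549) and 1.44 (H1703) with a median of -0.15 in 3D, against -0.98 (A549) to 1.79 (H1703) with a median of 0.25 in 2D. Lines differed far more than cultures did, and H1703 and H23 stood highest in both cultures. Within lines it fell by 0.46 (SD 0.34, adjusted p = 0.0429), with H358 at -0.91, H661 at -0.89 and A427 at -0.01. NUP93, the linker that holds the ring together, had values between -1.05 (H358) and 0.21 (A427) with a median of -0.14 in 3D, against -0.12 (H358) to 0.75 (H460) with a median of 0.10 in 2D. It fell by 0.45 (SD 0.36, adjusted p = 0.0487) in 7 of 8 lines, with A427 at 0.16, and the value was -0.17 (adjusted p = 0.203) with its dim probe set averaged in. NUP205, a large helical scaffold protein, had values between -0.56 (H1703) and 1.01 (H23) with a median of -0.13 in 3D, against -0.09 (H1703) to 1.19 (H23) with a median of 0.21 in 2D.

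H23 stood alone at the top for NUP205 in both cultures. The gene fell by 0.33 (SD 0.20, adjusted p = 0.0438) in 7 of 8 lines, with A427 at 0.09, although neither of its 2 probe sets, at -0.38 and -0.28, was called by itself. NUP188, the paralogue of NUP205, had values between -0.42 (A549) and 0.18 (H1437) with a median of -0.03 in 3D, against -0.08 (A427) to 0.53 (H358) with a median of 0.22 in 2D, and a difference of -0.23 ± 0.26 (adjusted p = 0.161). Its 2 probe sets differed: one was called lower at -0.51 and the other stood at 0.04, and with the representative probe set the gene was called at -0.51 (adjusted p = 0.0441). NUP35, which contacts the membrane, had values between -0.53 (H1703) and 0.49 (A549) with a median of -0.04 in 3D, against -0.28 (A427) to 0.77 (H23) with a median of 0.10 in 2D, and a difference of -0.13 ± 0.26 (adjusted p = 0.423). The calls in this ring were close to the threshold. NUP155 kept its call without A427 or H1437, and NUP93 and NUP205 kept theirs without A427; without each of the other lines the adjusted p lay between 0.0699 and 0.101 for NUP155, 0.0598 and 0.113 for NUP93, and 0.0682 and 0.103 for NUP205.

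**Figure D2:**
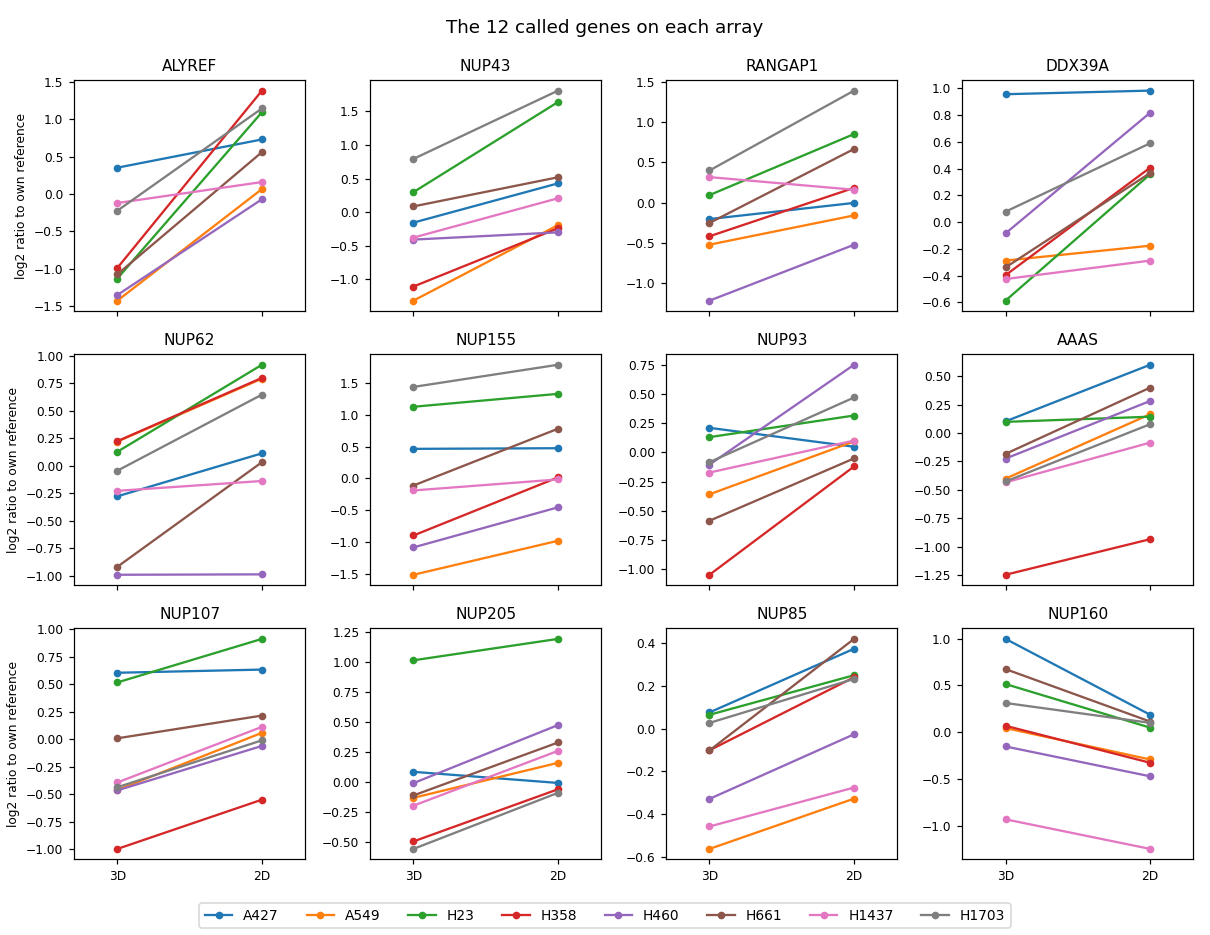
Values (log2 ratio to the gene's own reference, vertical axis, scaled per panel) of the 12 called members in 3D, left, and 2D, right, with 1 coloured line per cell line. In the plot 11 panels slope upward to 2D in at least 7 of 8 lines and NUP160 slopes downward in 8 of 8, while the cell lines keep much of their spread, as in NUP155, whose 3D values lie between -1.52 and 1.44.

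Of the nucleoporins tied to the membrane, 1 of 3 was called. AAAS (aladin), which is lost in triple A syndrome, had values between -1.25 (H358) and 0.10 (A427) with a median of -0.31 in 3D, against -0.94 (H358) to 0.60 (A427) with a median of 0.16 in 2D. H358 was far below the other lines in both cultures, and the groups overlapped. AAAS fell by 0.42 (SD 0.18, adjusted p = 0.0206) in 8 of 8 lines, with a call lost without H358 (adjusted p = 0.0510), H460 (0.0572) or H1703 (0.0564). NDC1, the transmembrane protein that holds AAAS at the pore, stood at -0.39 ± 0.30, lower in 7 of 8 lines, and missed the threshold (adjusted p = 0.0507). One of its 2 probe sets was called, at -0.52, and the other stood at -0.25. NUP210, a membrane nucleoporin with a large domain in the envelope lumen, stood at -0.06 ± 0.27.

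In the central channel NUP62, the phenylalanine-glycine nucleoporin at the core of the transport gel, had values between -0.99 (H460) and 0.22 (H358) with a median of -0.14 in 3D, against -0.99 (H460) to 0.92 (H23) with a median of 0.38 in 2D. H460 was lowest in both cultures, with a difference of -0.00, and H661 had the lowest difference, at -0.95. NUP62 fell by 0.51 (SD 0.33, adjusted p = 0.0313), with 1 of its 2 probe sets called (-0.69) and the other at -0.33. A further probe set that NUP62 shares with IL4I1 stood at 0.02 ± 0.22. The NUP62 call was kept without A427 or H1437 and lost without each other line (adjusted p = 0.0507 to 0.0769). Its channel partners were not called: NUP58 stood at -0.29 ± 0.47, with probe sets between -0.72 and 0.18, and NUP54 at -0.02 ± 0.16.

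Of the 6 genes of the cytoplasmic side limma called 0 (4 reached an unadjusted p under 0.05), although all 6 had a difference under 0 and the median was -0.25. NUP98, a mobile nucleoporin that binds RAE1 and is a fusion partner in leukaemia, had values between -1.23 (H1703) and 0.81 (A427) with a median of -0.40 in 3D, against -0.82 (H1703) to 0.82 (A427) with a median of 0.20 in 2D. Its difference was -0.50 ± 0.41 (adjusted p = 0.0507), with H661 at -1.09 and H1437 at 0.10. Of the 3 NUP98 probe sets 1 was called lower, at -0.47, and the others stood at -0.33 and -0.69. GLE1, which activates the helicase that strips export factors from mRNA as it leaves the pore, had values between -0.74 (H661) and 0.51 (H1437) with a median of -0.08 in 3D, against -0.38 (H23) to 0.77 (H1437) with a median of 0.11 in 2D.

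The GLE1 difference of -0.38 ± 0.38 (adjusted p = 0.0901) joined 2 probe sets called lower, at -0.62 and -0.41, with the other at -0.11, and H23 went the other way at 0.34. NUP214, the docking site for that helicase, stood at -0.31 ± 0.23 (adjusted p = 0.0590), where 1 probe set was called at -0.85 and the other 2 stood at -0.15 and 0.07. NUP88, its partner, stood at -0.19 ± 0.23. RANBP2, the SUMO ligase of the cytoplasmic filaments, had values between -0.75 (H358) and 0.43 (H661) with a median of -0.04 in 3D, against -0.79 (H358) to 0.40 (H23) with a median of 0.04 in 2D, a difference of -0.02 ± 0.12 (adjusted p = 0.876). A probe set it shares with its near copies of the RGPD family stood at -0.44 ± 0.58, so signal of those copies cannot be told apart from RANBP2 there. RAE1, an mRNA export factor, had values between -0.74 (H1703) and 0.91 (H23) with a median of -0.01 in 3D, against -0.61 (H1437) to 0.91 (H23) with a median of -0.02 in 2D, and a difference of -0.01 ± 0.18 (adjusted p = 0.927).

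The nuclear basket, where mRNA is checked before it enters the channel, had 0 genes of 3 called by limma (1 of them reached an unadjusted p under 0.05). NUP153, which anchors the basket, stood at -0.13 ± 0.32, and H23 alone was at -0.85 while the other lines lay between -0.22 and 0.19. NUP50, a cofactor of importin cargo release, stood at -0.18 ± 0.18, lower in 7 of 8 lines. Of its 5 probe sets 1 was called lower, at -0.33, and the rest lay between -0.26 and -0.05. TPR, the long coiled-coil protein that forms the basket filaments, stood at 0.17 ± 0.29 (adjusted p = 0.307) and was higher in 5 of 8 lines. Its 5 probe sets had the widest spread of any member, 0.99 between lowest and highest: one was called higher at 0.76 ± 0.54, and the rest lay between -0.22 and 0.24 without a call.

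**Figure D3:**
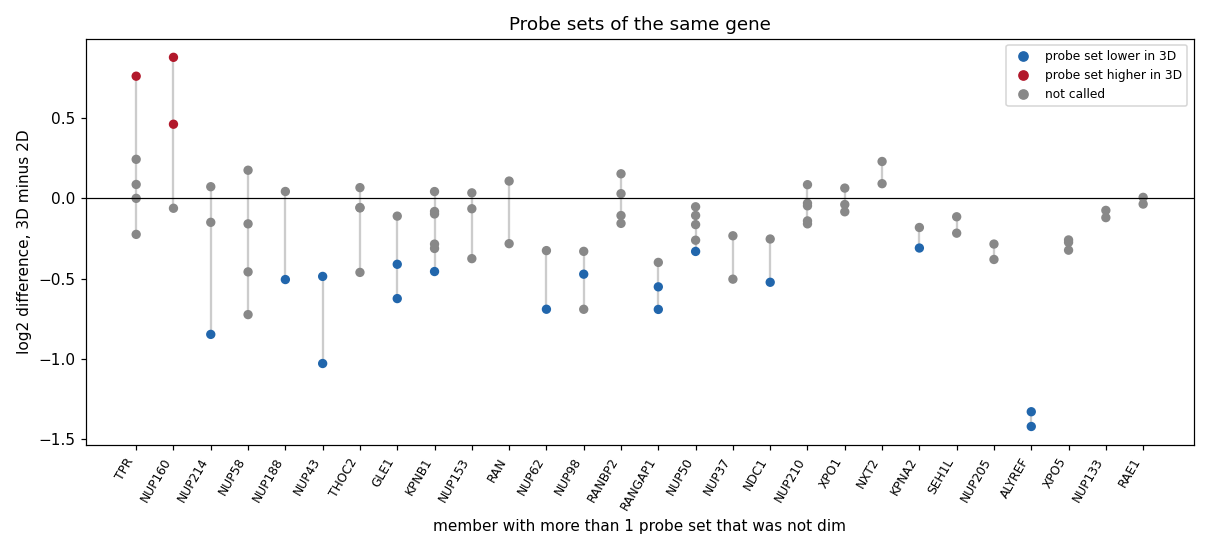
Difference between 3D and 2D (log2, vertical axis) of each probe set, for the 28 members with more than 1 probe set, ordered by the span between them. Blue and red points are called lower and higher. TPR, NUP160 and NUP214 have the widest spans, up to 0.99, and both probe sets of ALYREF and of NUP43 are called lower.

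Probe sets were also fitted one by one. Of the 98 member probe sets 22 were called lower, or 22.4%, where 5.22% of all 27631 tested probe sets were called lower. A further 3 were called higher, where 2.96% of all were, and 77 of 98 had a difference under 0. At least 1 probe set was called lower in 18 members, and at least 1 was called higher in 2 members (NUP160 and TPR). The share of all probe sets under 0, and of all genes with a called probe set, was not counted. A gene with more probe sets also has more chances of such a call. The direction of the probe sets differed within 13 of the 28 members that have several. Such probe sets lie in different stretches of a transcript and need not report the same isoforms, which was not tested here.

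Among the 9 genes of TREX and THO and the 3 of the mRNA export receptor, ALYREF and DDX39A were called lower, and the median over the 9 that could be tested was -0.28. ALYREF, the adaptor that binds spliced mRNA and loads the export receptor, had values between -1.42 (A549) and 0.35 (A427) with a median of -1.03 in 3D, against -0.07 (H460) to 1.38 (H358) with a median of 0.64 in 2D. In 3D all lines but A427 lay below 0, in 2D all but H460 lay above 0, and the groups overlapped through the A427 array in 3D. The difference was -1.38 ± 0.75 (SD, n = 8; adjusted p = 0.0187), a 3D to 2D ratio of 0.385, and was the 3rd lowest of all 14113 genes tested. By line it was -2.37 in H358, -2.22 in H23, -1.63 in H661, -1.49 in A549, -1.37 in H1703, -1.28 in H460, -0.38 in A427 and -0.28 in H1437. Both of its probe sets were called lower, at -1.33 and -1.42. The call was lost without H460 (adjusted p = 0.0507) or H1703 (0.0518), with differences of -1.39 and -1.38, and the difference was -0.83 (adjusted p = 0.431) with the 18S level as a covariate.

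DDX39A, an RNA helicase closely related to the TREX helicase DDX39B, had values between -0.59 (H23) and 0.96 (A427) with a median of -0.31 in 3D, against -0.29 (H1437) to 0.98 (A427) with a median of 0.39 in 2D. A427 stood above all other lines in both cultures. DDX39A fell by 0.52 (SD 0.38, adjusted p = 0.0413) in 8 of 8 lines, with H23 at -0.95 and A427 at -0.03. Its 1 probe set is of a kind that can match more than 1 transcript. The call was kept without A427 or H1437 and lost without each other line (adjusted p = 0.0508 to 0.0975). It was also lost under quantile normalisation (adjusted p = 0.0644), and the difference was -0.22 (adjusted p = 0.680) with the 18S level as a covariate. DDX39B itself has no probe set of its own here, and the 2 it shares with neighbouring transcripts stood at -0.16 ± 0.15 and -0.23 ± 0.43.

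The core THO genes, which bring TREX to transcribed genes, were not called, and 4 of the 5 tested lay under 0. THOC6 stood at -0.42 ± 0.51 (adjusted p = 0.133), with H661 at -1.32 and H1437 at 0.29. THOC5 stood at -0.36 ± 0.31 (adjusted p = 0.0684) and THOC1 at -0.28 ± 0.17 (adjusted p = 0.0554), each lower in 7 of 8 lines. THOC2, the large scaffold subunit, had values between -0.69 (H358) and 0.45 (H23) with a median of -0.05 in 3D, against -0.30 (A427) to 0.77 (H23) with a median of 0.04 in 2D, a difference of -0.13 ± 0.31 (adjusted p = 0.487), and was split at 4 lines lower and 4 higher. THOC7 had values between -0.54 (A427) and 0.32 (H358) with a median of -0.04 in 3D, against -0.86 (A427) to 0.27 (H358) with a median of -0.00 in 2D, a difference of 0.08 ± 0.23 (adjusted p = 0.592). THOC3 was measured by a probe set it shares with LOC728554, at -0.27 ± 0.25.

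The receptor that carries mRNA through the channel is a pair of NXF1 with NXT1 or NXT2. NXF1 was not analysed here. NXT1 stood at -0.19 ± 0.32 (adjusted p = 0.280) and NXT2 at 0.16 ± 0.35 (adjusted p = 0.406), and NXT2 was higher in 6 of 8 lines, with H661 at 0.91.

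All 6 importin, exportin and Ran genes had a difference under 0, with a median of -0.22, and 1 was called. RANGAP1, which makes Ran hydrolyse GTP on the cytoplasmic side and so gives transport its direction, had values between -1.22 (H460) and 0.40 (H1703) with a median of -0.23 in 3D, against -0.52 (H460) to 1.39 (H1703) with a median of 0.17 in 2D. The same lines were lowest and highest in both cultures. RANGAP1 fell by 0.55 (SD 0.39, adjusted p = 0.0364) in 7 of 8 lines, with H1703 at -0.99, H661 at -0.92 and H1437 at 0.16. Of its 3 probe sets 2 were called, at -0.55 and -0.69, and the third stood at -0.40. The difference was -0.31 (adjusted p = 0.610) with the 18S level as a covariate. The call was kept without A427 or H1437 and lost without each other line (adjusted p = 0.0580 to 0.0871).

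The other 5 were not called. RAN, the GTPase of the cycle, had values between -0.99 (H661) and 0.55 (A549) with a median of 0.04 in 3D, against -0.62 (H661) to 0.72 (H460) with a median of 0.02 in 2D, and a difference of -0.09 ± 0.24 (adjusted p = 0.574). XPO1, the main exportin of proteins and the target of selinexor, had values between -0.60 (H1437) and 0.54 (H661) with a median of -0.10 in 3D, against -0.36 (H1437) to 0.53 (A427) with a median of 0.01 in 2D. Its difference was -0.02 ± 0.16 (adjusted p = 0.898), with 4 lines higher and 4 lower. XPO5, the exportin of microRNA precursors, had values between -1.23 (H460) and 0.48 (H23) with a median of -0.13 in 3D, against -0.94 (A549) to 1.13 (H661) with a median of 0.15 in 2D, and a difference of -0.29 ± 0.38 (adjusted p = 0.182). KPNB1 (importin beta), which carries most classical import, stood at -0.20 ± 0.14 (adjusted p = 0.102), and KPNA2, an importin alpha that is high in dividing cells, at -0.25 ± 0.20 (adjusted p = 0.0829). Each of these last 2 genes was lower in 7 of 8 lines. Of the 6 KPNB1 probe sets 1 was called lower, at -0.46, and the rest lay between -0.31 and 0.04. Of the 2 KPNA2 probe sets 1 was called lower, at -0.31, and the other stood at -0.18. The 2 RAN probe sets stood at 0.11 and -0.28, without a call.

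The lines differed in how many members were lower in 3D. The number was 38 of 43 in A549 and in H460, 37 in H358, 36 in H23, 33 in H661 and in H1703, 27 in H1437 and 23 in A427. As shares, these ran between 88.4% in A549 and H460 and 53.5% in A427, with 76.7% in H661 and 62.8% in H1437. Over all tested genes the share lower was 52.1% in A549, 50.5% in H460, 47.3% in H358 and 45.8% in H23. It was 60.1% in H661, 56.2% in H1703, 43.6% in H1437 and 49.8% in A427. Member medians were -0.38 in H358, -0.37 in H661, -0.29 in H1703, -0.28 in H460, -0.24 in A549, -0.19 in H23, -0.17 in H1437 and -0.01 in A427. The median over all tested genes was between -0.08 and 0.04 in every line. Proliferation genes had medians of -0.91 in H358, -0.76 in H661, -0.46 in H23, -0.44 in H1703, -0.41 in H460, -0.34 in H1437, -0.24 in A549 and -0.08 in A427. The 18S difference was -3.45 in H23, -1.61 in H460, -1.23 in H661, -0.98 in A549, -0.94 in H1703, -0.81 in H358, -0.13 in A427 and -0.08 in H1437. H23 had the lowest 18S value, at a member median of -0.19, while A427 and H1437 had both the 18S values and the member medians nearest 0. A link between 18S and member values over lines was not tested. With 1 array per culture, no line can be tested by itself. In A427 NUP43, AAAS and ALYREF were still at -0.59, -0.50 and -0.38, while NUP160 had its highest difference of any line.

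**Figure D4:**
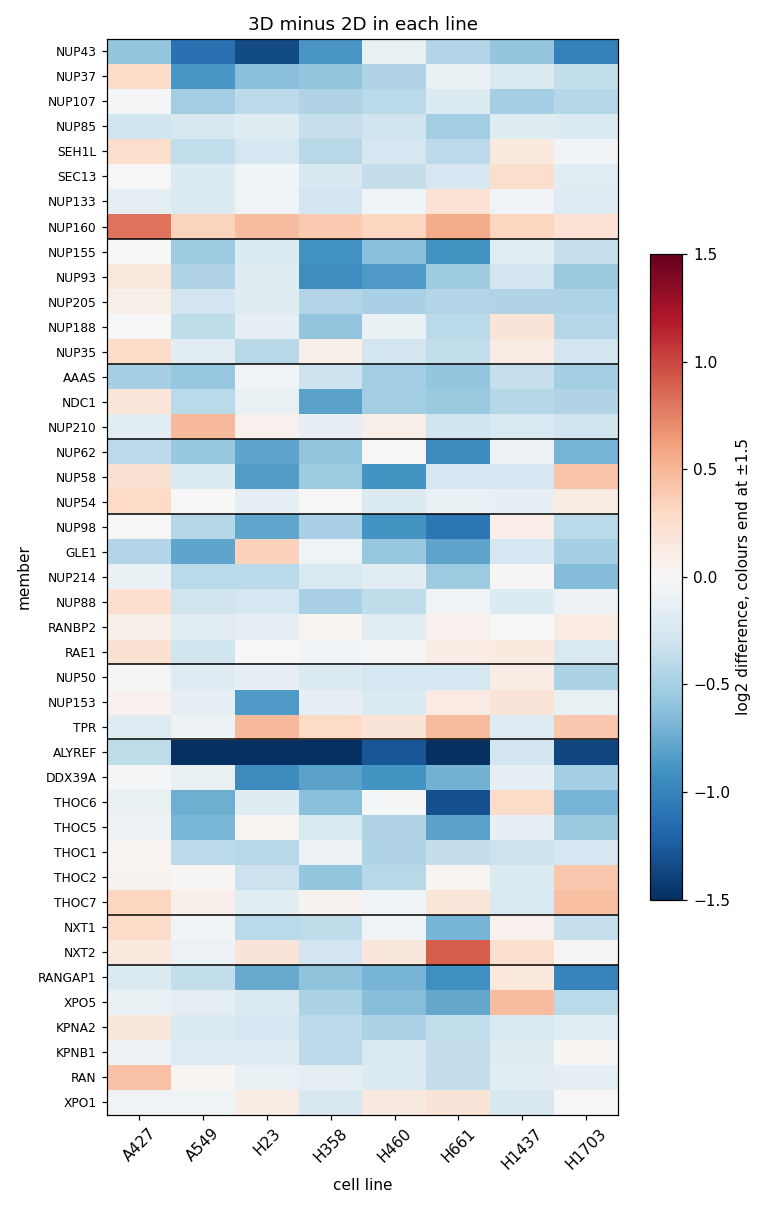
Difference between 3D and 2D (log2, colour, ending at 1.5 in either direction) of the 43 tested members, rows, in each of the 8 lines, columns, with black lines between the groups. ALYREF is the darkest row, paler in A427 and H1437, NUP160 is red in all 8 lines, and A427 is the palest column. In A427, 23 of 43 members were lower, against 49.8% of all tested genes.

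**Figure D5:**
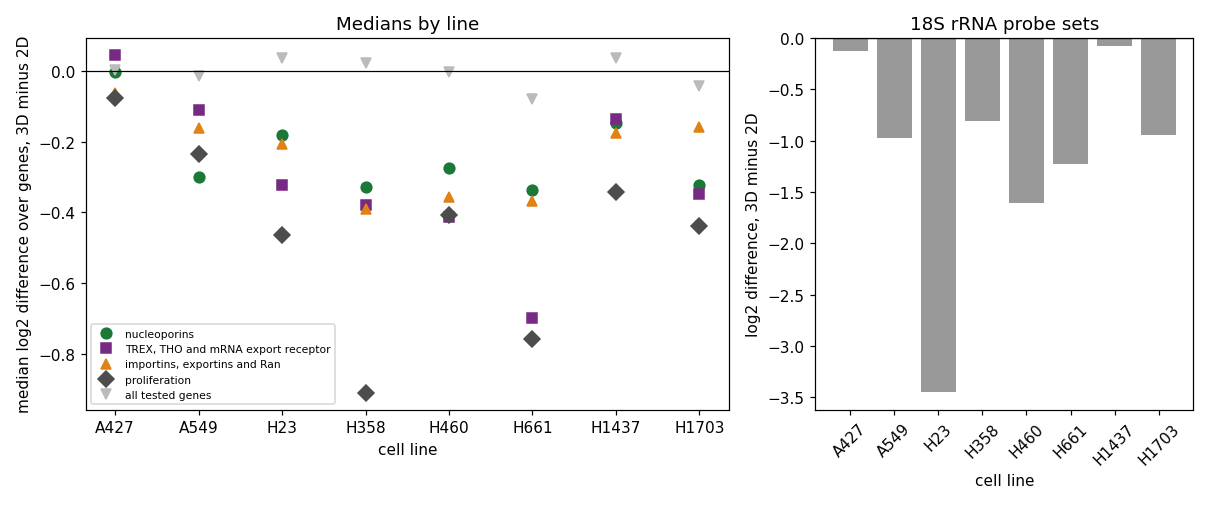
Left, the median difference between 3D and 2D (log2) in each line for the 3 member groups, 17 proliferation genes and all tested genes; right, the mean 18S rRNA difference in each line. Member medians lie between -0.70 and 0.04, nearest 0 in A427, and 18S bars reach -3.45 in H23.

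Other genes of the same machinery were read from a list of 42, of which 38 were tested. Of these 4 were called lower, or 10.5%, where 4.12% of all tested genes were, and 2 were called higher, where 1.97% were. Their median was -0.21, and it was -0.10 both with the 18S level as a covariate and without probe sets that can match several transcripts. Among 19 karyopherins, the family of importins and exportins, 18 lay under 0 and the median was -0.28. XPO7, an exportin, fell by 0.54 (SD 0.23, adjusted p = 0.0187), TNPO3, which imports SR splicing factors, by 0.43 (SD 0.20, adjusted p = 0.0232) and CSE1L, which returns importin alpha to the cytoplasm, by 0.37 (SD 0.26, adjusted p = 0.0449). The importin alpha gene KPNA5 went the other way, at 0.55 ± 0.33 (adjusted p = 0.0276) in 8 of 8 lines, with all 3 of its probe sets called higher. Among 16 tested pore and export factors 8 were under 0 and 8 over, with a median of -0.01. NCBP1, the large subunit of the cap-binding complex that recruits TREX, fell by 0.52 (SD 0.25, adjusted p = 0.0197), and DDX19B, the helicase that GLE1 activates, rose by 0.86 (SD 0.39, adjusted p = 0.0179) on its 1 probe set, each in 8 of 8 lines.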

How the data were processed

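The deposited table holds log2 values for 54675 probe sets on 16 arrays. How the authors summarised and normalised them is not given in the sources used here. From the values, each is a log2 ratio to a reference of the probe set itself: the median over arrays equals that reference for 63.5% of probe sets and lies under it for the rest, called dim here. Array medians ran between -0.28 and -0.07. Genes came from the platform annotation, where 41097 probe sets have 1 symbol, 1801 several and 11777 none. The 27631 probe sets with 1 symbol that were not dim were averaged per gene, so 98 of 107 member probe sets entered. R 4.3.3 and limma 3.58.1 (lmFit, eBayes with trend) fitted 3D minus 2D with line as a block, since the labels name the line of each array, adjusted by Benjamini-Hochberg over all genes and tested on simulated data. Members and lists were chosen with earlier results of these data known. Each called member, and the 2 highest and 2 lowest of each group of 5 or more, got its lowest, median and highest value. Alternatives changed the probe set summary, filters, scaling, covariates, variance model and lines. The number of arrays limits the precision.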

Additional observations from a re-analysis of the deposited data

Results flagged for a closer look

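Dixon's test flags about 1 in 20 groups of independent, normally spread values. Among 129 groups of 8 values (3D, 2D and their difference for 43 members), it flagged 15 values far from the other 7 lines. In 3D these were NUP133 in H460 (0.922, the others at most 0.162), NUP188 in A549 (-0.423, the others at least -0.095), NUP205 in H23 (1.01, the others at most 0.082), AAAS in H358 (-1.249, the others at least -0.434), DDX39A in A427 (0.957, the others at most 0.079) and RAN in H661 (-0.986, the others at least -0.139). In 2D they were NUP160 in H1437 (-1.25, the others at least -0.473), NUP205 in H23 (1.188, the others at most 0.471), AAAS in H358 (-0.935, the others at least -0.084), NUP50 in H1703 (0.754, the others at most 0.111) and KPNA2 in H1437 (-1.043, the others at least -0.155). NUP205 in H23 and AAAS in H358 stood apart in both cultures. The groups are not independent, since each difference is made from the 3D and 2D values. The share of all tested genes with such a value was not counted, so the number flagged cannot be read as a trait of the members.

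The difference between 3D and 2D stood apart in 4 genes. NUP133 in H661 was at 0.214, above 0 where the other lines lay between -0.293 and -0.054. NUP85 in H661 was at -0.522, the lowest of a gene that was under 0 in every line. NUP153 in H23 was at -0.854, and the other lines reached -0.221 at the lowest. NXT2 in H661 was at 0.907, where the others were at most 0.244.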

How the results depend on the processing

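The median over tested members was -0.25, and each alternative kept the medians of members, nucleoporins, TREX with THO, and importins with exportins within the spread between lines, while the call counts moved. The fits without the line as a block and with the robust variance model have the same differences as the main fit. Their medians therefore could not move. For fits that leave out 1 line, the spread between lines is a wide margin. The 18S covariate brought these medians closer to 0, at -0.16 for members, -0.16 for nucleoporins, -0.17 for TREX with THO and the receptor, and -0.15 for importins with exportins. Against 860 genes and 12 members (11 lower) called, and 25 of 98 member probe sets, keeping dim probe sets in gave 333 genes, 6 members (5 lower; the calls of RANGAP1, DDX39A, NUP62, NUP155, NUP93 and NUP205 were lost) and 16 probe sets of 107. Leaving out probe sets that can match several transcripts (suffix s or x) gave 648 genes and left 31 members. Of these 7 were called lower, 2 were called higher and 24 lay under 0, with 14 of 48 probe sets called. NUP155, NUP62 and DDX39A, called in the main fit, had no probe set left in this one. The 18S covariate gave 0 genes, 0 members (0 lower) and 0 probe sets by limma, with 1368 genes and 12 members at an unadjusted p under 0.05. Without the line as a replicate block 1 gene, 0 members (0 lower) and 0 probe sets were called by limma. In that fit 5 members and 384 genes had an unadjusted p under 0.05. Leaving out 1 line at a time gave 17 to 980 genes, 0 to 17 members, 0 to 16 of them lower, and 9 to 27 probe sets. Without the line as a block each difference stays the same, and the spread between lines enters the error. The fits with 1 line left out have fewer arrays. Beyond this, the cause of these moves was not tested. Members whose small difference changed sign were not called in either fit: with the representative probe set RAE1 (0.0071), THOC2 (0.068) and RAN (0.11); with dim probe sets RAE1 (0.013); without suffix s or x RANBP2 (0.15), RAE1 (0.0071) and RAN (0.11); under quantile normalisation NUP54 (0.040), RAE1 (0.0039) and XPO1 (0.0034); with the 18S covariate NUP35 (0.083), NUP54 (0.074), NUP58 (0.027), RANBP2 (0.058), RAE1 (0.028), NUP153 (0.19) and TPR (-0.043). With 1 line left out RANBP2 (-0.039 to 0.0014), RAE1 (-0.049 to 0.027), NUP54 (-0.065 to 0.0065) and XPO1 (-0.049 to 0.013) spanned 0. Single calls near the threshold were lost with the representative probe set for RANGAP1 and NUP205, without suffix s or x for NUP93 and NUP205, under quantile normalisation for DDX39A and NUP93, and with the robust variance model for NUP93. Median centring gave 972 genes and 15 members (14 lower, 1 higher), and the representative probe set 849 genes and 14 members (12 lower, 2 higher). Those called higher with the representative probe set were NUP160 at 0.88 (adjusted p = 0.0134) and TPR at 0.76 (adjusted p = 0.0315).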
